A study of Mus musculus with 8 samples.

Results

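Resident macrophage scavenger genes are described here through 10 members of the 32285 genes listed: Timd4, Lyve1, Folr2, Cd163, Mrc1, Vsig4, Cbr2, Fcna, Ms4a7 and Ltc4s. The members were named by symbol with values of these samples in view, so their levels are a description and carry no test. The study compared hearts of wild-type male C57BL/6J mice after sham surgery, in which the aorta was not ligated, with hearts taken 2 weeks (TAC-2w), 4 weeks (TAC-4w) and 6 weeks (TAC-6w) after transverse aortic constriction, an operation that narrows the aortic arch and overloads the left ventricle with pressure. Each condition had 1 single-cell RNA library and 1 Visium heart section, on which RNA is captured in barcoded spots. The mice were 8 weeks old at the start of the experiment, and the time of harvest after sham surgery and the number of hearts behind a library are not given in the sources used here. Whether whole cells or nuclei were loaded is not settled, since the labels speak of nuclei and the methods of dissociated cells. The barcodes are called cells here.

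Tissue-resident macrophages of the heart are seeded before birth and largely maintain themselves by local division, whereas circulating monocytes enter the tissue and become macrophages after injury. The resident cells are known for taking up dying cells, worn mitochondria, lipoproteins and haemoglobin through scavenger receptors, and many sit along vessels. Cells made from monocytes carry the chemokine receptor Ccr2 at first and more of the MHC class II genes, which present antigen to T cells.

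Some of the members serve steps of this clearance, and others have other tasks. Timd4 (chr11:46810786-46844333) binds phosphatidylserine on dying cells, and Lyve1 (chr7:110850607-110862953) binds hyaluronan and also marks lymphatic endothelium. Folr2 (chr7:101839988-101857190) binds folate, Cd163 (chr6:124304636-124330529) takes up haemoglobin bound to haptoglobin, and Mrc1 (chr2:14229414-14332023) is the mannose receptor. Vsig4 (chrX:96247201-96293438) is a receptor for fragments of complement C3, and Fcna (chr2:25624665-25635440) encodes ficolin A, a secreted lectin that starts the complement cascade. Cbr2 (chr11:120729485-120732025) is a carbonyl reductase, Ms4a7 (chr19:11321039-11336146) a membrane-spanning protein, and Ltc4s (chr11:50236461-50238532) leukotriene C4 synthase, which joins leukotriene A4 to glutathione. Coordinates are those of the genes in RefSeq on GRCm38.p6.

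Promoter windows of RefSeq (GRCm38.p6, 250 bases before to 50 after a transcript start) were found for 9 of the 10 members, in 11 windows, and not for Lyve1. The windows of Fcna, Folr2, Ltc4s and Ms4a7 are shown in transcript orientation because these genes mark the ends of the range described below. Fcna and Folr2 were among the members found in the same cells most often relative to their frequencies, and Ms4a7 was the member that went its own way. Ltc4s was, like Lyve1, also found in endothelial cells. Capitals mark exact matches to GAGGAA or its reverse complement TTCCTC, the core that the myeloid factor PU.1 binds.
Fcna, chr2:25627925-25628224, minus strand: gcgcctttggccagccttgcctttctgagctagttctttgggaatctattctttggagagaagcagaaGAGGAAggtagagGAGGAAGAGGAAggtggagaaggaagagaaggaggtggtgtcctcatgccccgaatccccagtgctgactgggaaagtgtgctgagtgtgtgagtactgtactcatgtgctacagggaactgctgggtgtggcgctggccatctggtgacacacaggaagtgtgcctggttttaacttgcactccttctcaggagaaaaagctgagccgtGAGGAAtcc
Folr2, first start, chr7:101857141-101857440, minus strand: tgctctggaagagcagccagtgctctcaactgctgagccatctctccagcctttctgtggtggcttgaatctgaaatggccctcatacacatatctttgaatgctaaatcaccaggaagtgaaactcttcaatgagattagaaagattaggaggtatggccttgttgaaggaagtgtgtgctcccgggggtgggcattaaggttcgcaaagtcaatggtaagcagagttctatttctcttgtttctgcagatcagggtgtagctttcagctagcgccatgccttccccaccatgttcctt
Folr2, second start, chr7:101845282-101845581, minus strand: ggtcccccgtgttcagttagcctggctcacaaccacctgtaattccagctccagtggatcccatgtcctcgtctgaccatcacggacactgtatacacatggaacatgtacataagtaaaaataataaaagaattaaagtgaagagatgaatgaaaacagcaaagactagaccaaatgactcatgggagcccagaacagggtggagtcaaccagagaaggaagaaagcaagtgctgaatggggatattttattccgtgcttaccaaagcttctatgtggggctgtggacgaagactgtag
Ltc4s, chr11:50238483-50238782, minus strand: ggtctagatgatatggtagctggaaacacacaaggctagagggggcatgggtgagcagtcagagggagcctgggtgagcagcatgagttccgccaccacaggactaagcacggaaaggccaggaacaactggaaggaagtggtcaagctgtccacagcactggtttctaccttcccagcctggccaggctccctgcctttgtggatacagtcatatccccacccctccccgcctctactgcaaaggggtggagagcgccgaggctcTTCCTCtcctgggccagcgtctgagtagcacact
Ms4a7, first start, chr19:11336097-11336396, minus strand: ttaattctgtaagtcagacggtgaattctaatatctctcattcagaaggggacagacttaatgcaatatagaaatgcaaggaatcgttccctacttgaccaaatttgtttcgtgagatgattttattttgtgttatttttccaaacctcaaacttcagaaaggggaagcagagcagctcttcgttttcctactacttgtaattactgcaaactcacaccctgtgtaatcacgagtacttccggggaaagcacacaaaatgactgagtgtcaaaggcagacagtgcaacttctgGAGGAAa
Ms4a7, second start, chr19:11334646-11334945, minus strand: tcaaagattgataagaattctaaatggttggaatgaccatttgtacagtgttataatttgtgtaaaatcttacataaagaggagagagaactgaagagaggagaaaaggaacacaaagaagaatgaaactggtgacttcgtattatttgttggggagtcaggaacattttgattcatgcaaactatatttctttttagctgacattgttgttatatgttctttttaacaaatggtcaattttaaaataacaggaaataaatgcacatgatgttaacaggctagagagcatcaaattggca
The window of Fcna held 4 matches to GAGGAA, of which 2 abut, and neither window of Folr2 held any. The window of Ltc4s held 1 match to TTCCTC, the first window of Ms4a7 held 1 match to GAGGAA and its second window held none. GAGGAA or its reverse stood in windows of 6 of the 9 members (Mrc1, Vsig4, Cbr2, Fcna, Ms4a7 and Ltc4s), against 28.3% of all 32851 windows and 31.3% of the 27025 genes with a window. These matches describe the letters and were not tested as binding sites.

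Macrophages were the cells with 10 or more UMIs (counted molecules) summed over the complement genes C1qa, C1qb and C1qc, after the filters on cells that the methods state. There were 1765 macrophages in the sham library, 1702 in TAC-2w, 164 in TAC-4w and 873 in TAC-6w, which made 22.2%, 27.0%, 2.51% and 16.2% of the cells kept. Further macrophage markers (Cd68, Adgre1, Csf1r, Fcgr1 and Mertk) were found in 98.4% to 99.7% of them. Of the macrophages, 49.4% in sham, 59.4% in TAC-2w, 18.3% in TAC-4w and 6.64% in TAC-6w held 3 or more UMIs of fibroblast markers. For cardiomyocyte markers the shares were 28.5%, 42.8%, 1.83% and 1.95%. For neutrophil markers they were 0.850%, 0.470%, 43.3% and 0.344%, and for monocyte markers 10.6%, 8.28%, 25.0% and 4.93%. The median depth of a macrophage was 7686 UMIs in sham, 9134 in TAC-2w, 7240 in TAC-4w and 3846 in TAC-6w. The TAC-4w library stood apart, with 2368 B cells, 1278 neutrophils and 437 fibroblasts against 200, 151 and 4517 in sham, and which part of the heart was loaded for it is not given in the sources used here. Its macrophages carried more of the neutrophil markers (565 against 242 CPM, UMIs per 1000000 UMIs, in sham), the monocyte markers (408 against 152 CPM), the B cell markers (156 against 27.2 CPM) and the NK cell markers (147 against 6.21 CPM), and less of the fibroblast markers (152 against 996 CPM), and the part of these in the results was not tested. Any pair of libraries shared 9 to 30 barcodes, none of them a macrophage in both. By the labels the sham and TAC-6w libraries were of 1 batch, and TAC-2w and TAC-4w each of another, so that for these libraries condition and batch cannot be told apart. With 1 library per condition there is no test between conditions, and every interval given is a 95% interval that covers counting error only. All 3 comparisons share the sham library.

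In macrophages of the TAC-4w library, 9 of the 10 members were lower than in sham and Ms4a7 was higher. In TAC-2w 9 members were higher than in sham by small ratios and Vsig4 was lower, and in TAC-6w 9 were lower and Ltc4s was higher. Over the members the median ratio to sham was 1.24 for TAC-2w, fell to 0.173 for TAC-4w and stood at 0.705 for TAC-6w. For all genes with 50 or more UMIs the medians were 1.01, 1.01 and 0.866.

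**Figure D1:**
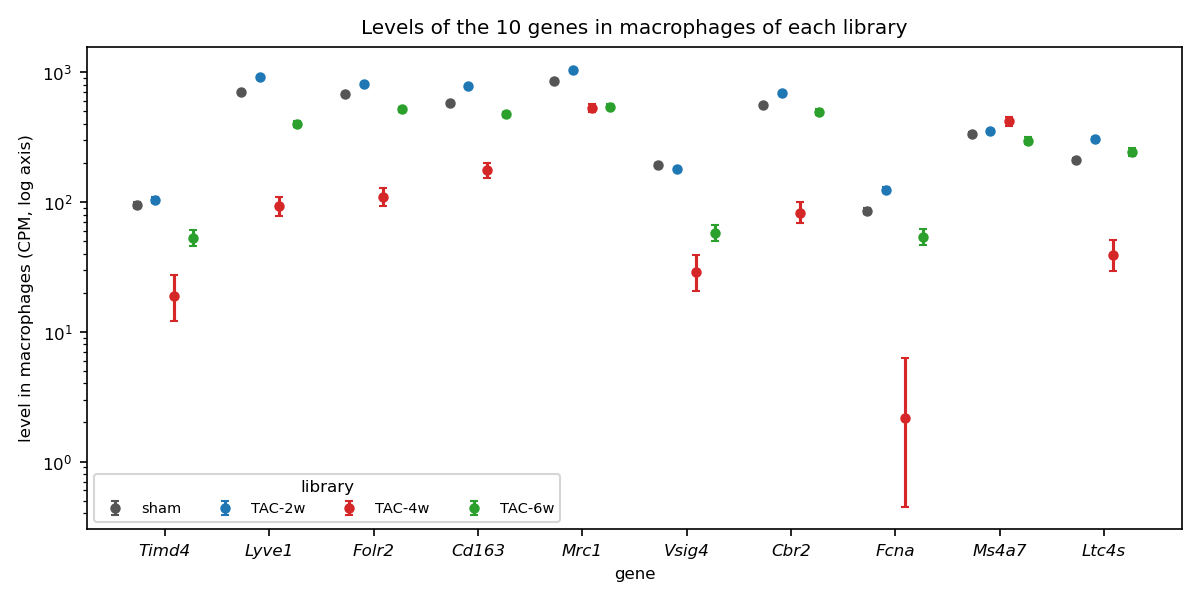
Levels of the 10 members in macrophages of each library, in CPM on a log axis, with exact Poisson 95% intervals (1 library per condition). In TAC-4w 9 members lie below their sham level, Fcna lowest at 2.16 CPM, and Ms4a7 lies above it at 420 CPM.

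The receptors for dying cells, hyaluronan and folate moved together between libraries. Timd4 stood at 95.2 CPM in sham, 104 in TAC-2w, 18.7 in TAC-4w and 52.9 in TAC-6w. Lyve1 stood at 700, 912, 92.7 and 400 CPM in the same order, and Folr2 at 675, 816, 109 and 520 CPM. For each of these 3 receptors TAC-2w was highest, then sham, TAC-6w and TAC-4w, and no interval overlapped that of a neighbour except between sham and TAC-2w for Timd4 (90.3 to 100 against 99.0 to 109 CPM). Relative to sham, Lyve1 was 1.30 (1.27 to 1.34) in TAC-2w, 0.133 (0.111 to 0.158) in TAC-4w and 0.571 (0.541 to 0.603) in TAC-6w. The ratios of Folr2 were 1.21 (1.18 to 1.24), 0.162 (0.137 to 0.190) and 0.771 (0.734 to 0.810), and those of Timd4 were 1.09 (1.02 to 1.17), 0.196 (0.128 to 0.289) and 0.556 (0.476 to 0.646). In cells thinned to 1000 UMIs the Timd4 ratio at TAC-2w turned to 0.948. Without cells that held 3 or more marker UMIs of another cell type, the TAC-2w ratios were 1.08 for Timd4, 1.14 for Lyve1 and 1.06 for Folr2. The low levels went with fewer cells in which the gene was found: at an equal depth of 1000 UMIs per cell, Lyve1 was found in 32.4% of macrophages of sham, 38.3% of TAC-2w, 5.49% of TAC-4w and 19.6% of TAC-6w. Without thinning these shares were 52.7%, 62.0%, 18 of 164 cells and 34.8%, where B cells, which should lack the gene, had 4.00%, 4.96%, 0.127% and 0.240% at a median depth of 3176, 3714, 4409 and 2067 UMIs.

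Cd163 and Mrc1, receptors for haemoglobin and for sugars, were lower in TAC-4w than in sham by less than Lyve1 and Folr2 were, with intervals of the ratios that did not overlap. Cd163 stood at 574 CPM in sham, 784 in TAC-2w, 175 in TAC-4w and 475 in TAC-6w, so that its ratios to sham were 1.37 (1.33 to 1.40), 0.304 (0.267 to 0.346) and 0.827 (0.785 to 0.871). In TAC-4w 1 macrophage held 60 of the 243 Cd163 UMIs. Among cells with a mitochondrial share under 5% the Cd163 ratio at TAC-4w was 0.175, level with Lyve1 (0.166) and Folr2 (0.191), so that its place above them was lost, and it was 0.436 in thinned cells and 0.437 without cells with monocyte markers. Mrc1 stood at 849, 1044, 529 and 543 CPM, with ratios of 1.23 (1.20 to 1.26), 0.623 (0.578 to 0.671) and 0.640 (0.610 to 0.670). Without cells that held markers of another cell type, the TAC-2w ratio was 1.14 for Mrc1 and 1.37 for Cd163. For Mrc1 the TAC-4w and TAC-6w levels did not differ beyond counting error, with a ratio between them of 1.03 (0.943 to 1.12). Mrc1 was also the member found in the largest share of macrophages of each library, 90.9% in sham, 1617 of 1702 cells in TAC-2w, 82.3% in TAC-4w and 71.4% in TAC-6w, against 3.00%, 2.84%, 0.296% and 1.20% of B cells. At 1000 UMIs per cell the shares of macrophages were 50.1%, 57.0%, 32.9% and 38.0%.

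The complement members were at their lowest in TAC-4w. Vsig4, the C3 receptor, stood at 193 CPM in sham, 178 in TAC-2w, 28.8 in TAC-4w and 57.8 in TAC-6w. It was the member with the lowest ratio at TAC-6w, 0.299 (0.259 to 0.344), and at TAC-4w its ratio was 0.149 (0.106 to 0.203). That value was 0.0268 without cells that held markers of another cell type, 0.224 without cells with monocyte markers and 0.250 in thinned cells, below sham in each case. At TAC-2w its ratio of 0.921 (0.875 to 0.969) depended on the cells and the weighting: it was 1.04 without cells that held markers of another cell type, 1.02 in cells thinned to 1000 UMIs and 1.00 as a mean over cells. Fcna, the ficolin, stood at 85.2, 124, 2.16 and 53.5 CPM. Only 3 UMIs of Fcna were counted in the TAC-4w macrophages, each in a cell of its own, which gave a ratio of 0.0253 with an interval from 0.00521 to 0.0742. At 1000 UMIs per cell Fcna was found in 0 of 164 macrophages of TAC-4w, which by a limit of 3 cells allows a share with a UMI at that depth of up to 1.83%, against 5.98% in sham, 8.07% in TAC-2w and 3.80% in TAC-6w.

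The enzymes Cbr2 and Ltc4s were low in TAC-4w and near or above sham in TAC-6w. Cbr2 stood at 558 CPM in sham, 697 in TAC-2w, 82.7 in TAC-4w and 494 in TAC-6w, and Ltc4s at 211, 308, 38.8 and 242 CPM. The ratios of Cbr2 to sham were 1.25 (1.22 to 1.29), 0.148 (0.122 to 0.178) and 0.886 (0.842 to 0.932). Those of Ltc4s were 1.46 (1.39 to 1.52), 0.184 (0.138 to 0.241) and 1.15 (1.07 to 1.24), which made it the member above sham at TAC-6w. Without cells that held markers of another cell type, the TAC-2w ratios were 1.07 for Cbr2 and 1.35 for Ltc4s. From TAC-4w to TAC-6w the 2 enzymes differed by 5.98-fold (4.95 to 7.28) and 6.25-fold (4.74 to 8.38). Ms4a7 had another order, with 337 CPM in sham, 352 in TAC-2w, 420 in TAC-4w and 297 in TAC-6w, so that TAC-4w was its highest library. Its ratios were 1.05 (1.01 to 1.09), 1.25 (1.14 to 1.36) and 0.881 (0.825 to 0.941). At 1000 UMIs per cell, Ms4a7 was found in 26.7% of macrophages of both sham and TAC-2w, 25.6% of TAC-4w and 22.4% of TAC-6w, so its share of cells hardly varied.

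Past 2-fold, the members were counted as follows. None of the 10 was at 0.5 or less or at 2 or more at TAC-2w, where 0.971% and 0.190% of the 10503 genes with 50 or more UMIs were. At TAC-4w 8 of 10 were at 0.5 or less, against 8.11% of 10166 genes, and none at 2 or more, against 2.67%. At TAC-6w Vsig4 was at 0.5 or less, against 7.46% of 10165 genes, and none at 2 or more, against 1.04%. Taken relative to the median gene, which stood at 0.866 at TAC-6w, the ratios of Cbr2 and Ms4a7 became 1.02 (0.972 to 1.08) and 1.02 (0.953 to 1.09), that of Cd163 0.955 (0.906 to 1.01) and that of Ltc4s 1.33 (1.24 to 1.43), and the other 6 stayed below 1. TAC-6w against sham is the comparison of libraries within 1 batch.

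Other gene groups of the same macrophages were read from lists, each counted over genes with 50 or more UMIs in either library. Of 14 other tissue macrophage genes, 9 were at 0.5 or less at TAC-4w, with a median ratio of 0.361, against a median of 1.15 at TAC-2w and 0.935 at TAC-6w. Among them were Pf4 (0.323, 0.304 to 0.343), a platelet chemokine that macrophages also make, F13a1 (0.320, 0.290 to 0.351), the coagulation factor XIII chain, Gas6 (0.320, 0.259 to 0.391), which bridges dying cells to the receptor Mertk, and Ninj1, at 0.462. Selenop, a selenium carrier, was at 0.658. Chosen after their values were seen, Ednrb, an endothelin receptor, had 1 UMI in TAC-4w (0.719 CPM against 40.1 in sham; ratio 0.0179, 0.000453 to 0.100), and the lectin Cd209f had 0 UMIs there against 19.6 CPM in sham, where 3 UMIs would make 2.16 CPM.

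Scavenger receptors that were no members did not as a group share the low ratio of the members at TAC-4w, though some did. Of 14 such receptors 4 were at 0.5 or less, against 8.11% of 10166 genes. At 2 or more was 1, against 2.67%, and the median was 1.02. Cd68, a lysosomal glycoprotein, was at 0.823, Stab1, which takes up acetylated lipoproteins, at 0.930 and Cxcl16 at 1.49, while Cd36, Clec10a and Colec12 were at 0.452, 0.457 and 0.202 and Havcr2 at 2.18. Scara5 had 0 UMIs in TAC-4w. Stab1 was at 1.62 (1.54 to 1.71) at TAC-6w. Of 9 genes of haem and iron handling, a task of Cd163, 2 were at 0.5 or less at TAC-4w: Hmox1, the haem-degrading oxygenase, at 0.265 (0.222 to 0.315) and Slc40a1, the iron exporter, at 0.0750 (0.0204 to 0.193), with a list median of 0.758. The ferritin chains Fth1 and Ftl1 were at 1.19 and 0.713.

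Of 10 other genes of leukotriene and prostaglandin synthesis none was past 2-fold at TAC-4w, and the median ratio was 0.965. Alox5ap, the activating protein of the lipoxygenase that starts leukotriene synthesis, stood at 645 CPM in sham and 671 CPM in TAC-4w (1.04, 0.971 to 1.11), and Alox5, that lipoxygenase, was at 0.656 (0.487 to 0.866) at TAC-4w, lower than sham as Ltc4s was but by less. At TAC-2w their ratios were 1.10 (1.07 to 1.13) and 1.24 (1.14 to 1.36), and at TAC-6w 1.09 and 1.04. In the opposite direction from the members, the 7 MHC class II genes were below sham at TAC-2w (7 of 7, median 0.755), above it at TAC-4w (7 of 7, median 1.70, with H2-DMb1 at 2.32 and Ciita at 2.65) and above it by less at TAC-6w (6 of 7, median 1.14, with H2-Eb1 at 1.34). Of 9 genes of monocyte-derived macrophages 5 were at 2 or more at TAC-4w, among them Ccr2 at 2.51 (2.22 to 2.83) and Ly6c2 at 9.33 (6.89 to 12.6), and Vcan was at 0.0275 (0.000695 to 0.154), with a median of 2.34. At TAC-2w and TAC-6w the median of that list was 0.703 and 0.691.

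The members were found in the same cells more often than their frequencies alone would give. After thinning to 1000 UMIs, the median odds ratio over the 45 pairs of members was 2.12 in sham, 1.77 in TAC-2w and 2.26 in TAC-6w, and 42, 43 and 36 pairs lay above 1. In TAC-4w it was 3.31 with 37 pairs above 1, but only 3 pairs had 5 or more joint detections expected there, with a median of 1.19, so that little can be read from it. These are descriptions within 1 library, in which cells share their source. Pairs of other genes were not counted, so how far such values are particular to the members is not known. The part of RNA from other cell types in them was not tested.

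In sham and TAC-2w the pairs with the highest odds ratios joined the hyaluronan receptor, the folate receptor, the ficolin and the leukotriene synthase. In sham, Lyve1 was found in 77.1% of macrophages with Fcna and 29.6% of those without it, an odds ratio of 7.91. For Folr2 and Fcna these were 77.1% and 31.1%, with an odds ratio of 7.38. Lyve1 was found in 61.1% of macrophages with Folr2 and 17.8% of those without, an odds ratio of 7.24. In TAC-2w the odds ratios of these 3 pairs were 4.54, 5.47 and 5.49, and in TAC-6w 4.72, 4.66 and 5.70. The highest pair in TAC-6w was Fcna with Ltc4s, at 7.69, followed by Timd4 with Lyve1, at 6.92, which were at 5.02 and 3.33 in sham. Ms4a7 was found with the other members about as often as their frequencies give in sham and TAC-2w: its median odds ratio over 9 pairs was 1.11 in sham, 1.07 in TAC-2w and 0.872 in TAC-6w, where 1 of 9 pairs was above 1. Vsig4 and Ltc4s, too, were found together about as often as their frequencies give, with odds ratios of 0.849, 0.867 and 0.857.

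**Figure D2:**
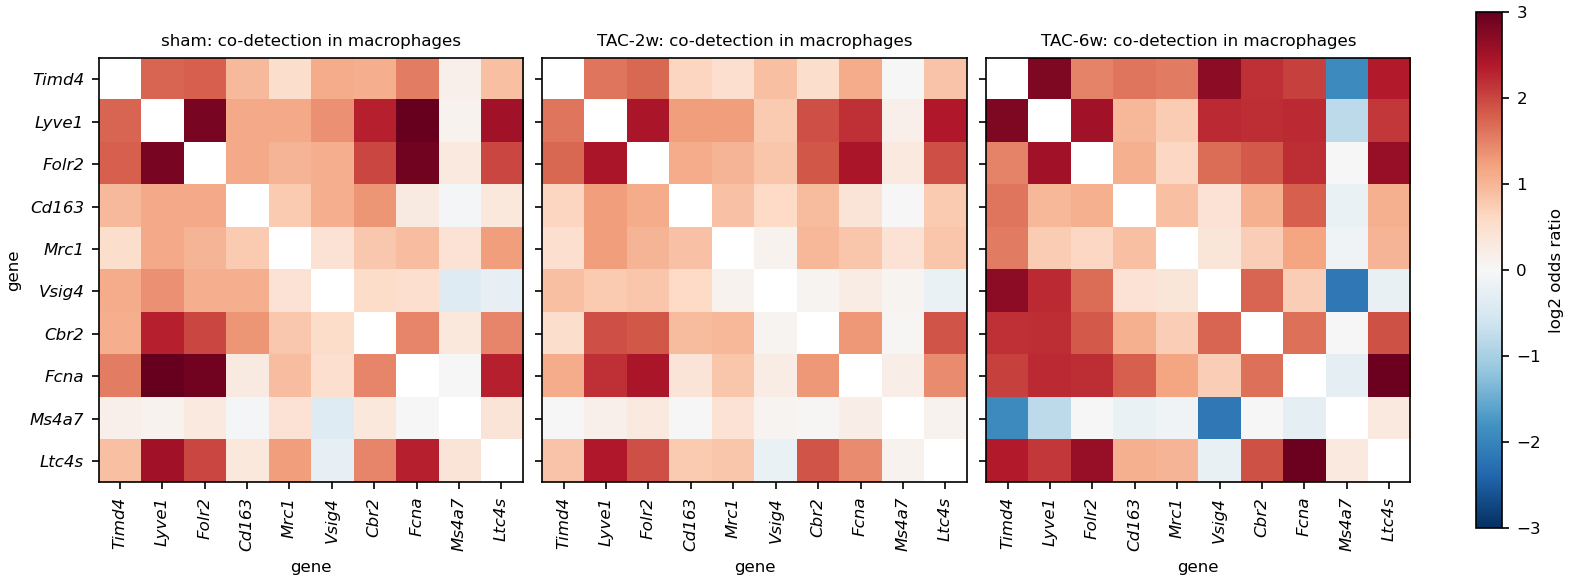
Log2 odds ratio of detection in the same macrophage for each pair of members in sham, TAC-2w and TAC-6w, after thinning to 1000 UMIs per cell (1757, 1698 and 868 cells). The darkest red squares are pairs among Lyve1, Folr2, Cbr2, Fcna and Ltc4s in sham and TAC-2w, joined in TAC-6w by Timd4 with Lyve1 (6.92) and with Vsig4 (6.39, from 4 cells), and the row of Ms4a7 is near white in sham and TAC-2w and partly blue in TAC-6w. TAC-4w is not drawn because 3 of its 45 pairs had 5 or more joint detections expected.

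Macrophages with 4 or more of the members detected at 1000 UMIs made 29.0% of the macrophages of sham, 38.9% of those of TAC-2w, 1.22% (2 cells) of TAC-4w and 17.7% of TAC-6w. Macrophages with none made 16.3%, 12.1%, 36.0% and 22.2%. The more members were found in a cell, the less MHC class II it held: in sham the 7 MHC class II genes summed to a mean of 44.4 UMIs per 1000 in cells with no member and 18.7 in cells with 4 or more. In TAC-2w the same means were 45.1 and 13.1, and in TAC-6w 49.1 and 15.6. The other tissue macrophage genes went the other way, from 4.38 to 13.6 UMIs in sham, and the C1q genes themselves from 12.7 to 19.7. Ccr2 was found in 13.2% of sham macrophages with no member and 1.57% of those with 4 or more. In TAC-4w, cells with 0, 1 and 2 members held 55.2, 57.9 and 45.6 MHC class II UMIs, above the sham cells with the same number of members.

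**Figure D3:**
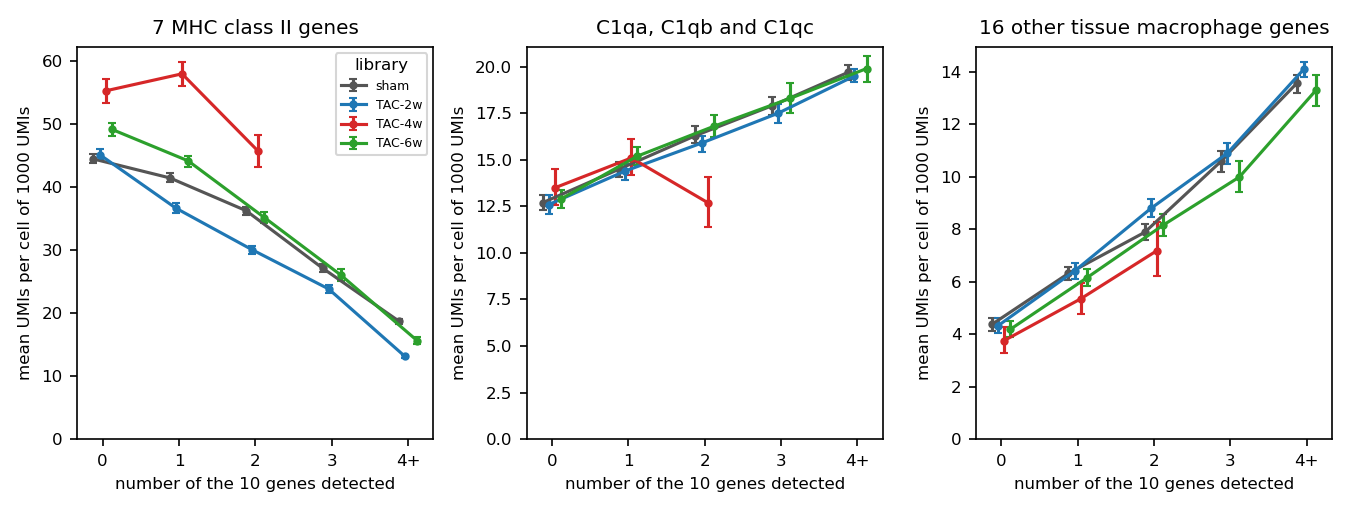
Mean UMIs per cell of 1000 UMIs, with exact Poisson 95% intervals, summed over the 7 MHC class II genes, the 3 C1q genes and 16 other tissue macrophage genes, by the number of the 10 members found in the cell. In sham, TAC-2w and TAC-6w the MHC class II sum falls from between 44.4 and 49.1 to between 13.1 and 18.7 while the others rise; TAC-4w is drawn for 0 to 2 members, since 13 and 2 cells had more.

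Outside the members, the genes most like them in single macrophages were F13a1 and Pf4. Over 1693 genes found in 5% or more of macrophages of each library, the correlation across cells with the number of members found, averaged over the 4 libraries, was 0.424 for F13a1, 0.412 for Pf4, 0.353 for the chemokine gene Ccl6, 0.340 for Wfdc17, 0.304 for Selenop, 0.299 for Ninj1, 0.280 for Fcgrt and 0.278 for Apoe. The lowest were the MHC class II genes Cd74 (-0.391), H2-Eb1 (-0.375), H2-Ab1 (-0.355) and H2-Aa (-0.348), followed by the cytokine gene Il1b (-0.274). With TAC-4w left out of the average, 6 of the 8 highest and 5 of the 5 lowest were shared. The genes ranked were still those found in 5% or more of macrophages of each library, TAC-4w included, so genes rare there could not enter. Of the members, left out of their own sum, Folr2 was at 0.387, Lyve1 at 0.379 and Cbr2 at 0.330, while Ms4a7 ranked 1031 of 1693. Timd4, Vsig4, Fcna and Ltc4s were found in under 5% of TAC-4w macrophages and were not ranked. Cells share a library and depth was set equal, so these are descriptions.

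Vsig4 was concentrated in few cells. Macrophages with 5 or more Vsig4 UMIs numbered 163 in sham (9.24%), 171 in TAC-2w (10.0%), 2 in TAC-4w (1.22%) and 18 in TAC-6w (2.06%), and they held 92.2%, 92.4%, 62.5% and 69.6% of the Vsig4 UMIs of macrophages. In sham the genes that led in the cells with 5 or more Vsig4 UMIs over other macrophages were Cxcl13, a chemokine for B cells, at 1360 against 44.1 CPM, the apolipoprotein gene Apoc1 at 163 against 7.22 CPM, and Cd207, the lectin langerin, at 1119 against 64.8 CPM. Cxcl13 was found in 31.9% of these Vsig4 cells, Apoc1 in 22.7% and Cd207 in 64.4%. In the other macrophages of sham the shares were 2.06%, 2.87% and 4.87%. Cd207 stood at 1181 against 53.7 CPM in TAC-2w and 888 against 52.7 CPM in TAC-6w. In the Vsig4 cells of sham the level of Timd4 was 2.56 times and that of Lyve1 1.80 times that of other macrophages. In sham Ms4a7 was at 0.758 and Ltc4s at 0.858. Timd4 and Lyve1 were at 1.73 and 1.40 in TAC-2w and at 3.82 and 3.71 in TAC-6w. Ms4a7 was at 1.00 (0.922 to 1.08) in TAC-2w and 0.392 (0.202 to 0.688) in TAC-6w. Ltc4s turned to 1.11 (1.02 to 1.20) in TAC-2w and 2.18 (1.62 to 2.89) in TAC-6w. The cells were chosen by Vsig4, so these values are a description.

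Most UMIs of the members lay in macrophages, and Lyve1, Ltc4s and Cbr2 had further sources in some libraries. In sham the share of the UMIs of kept cells that lay in macrophages was 89.6% for Lyve1 and 96.6% to 98.9% for the other 9 members. In TAC-4w, where macrophages were few, it was 35.1% for Ltc4s, 60.3% for Lyve1, 60.0% (3 of 5 UMIs) for Fcna and 87.1% to 98.1% for the other 7. Monocytes of the sham library held Mrc1 at 93.4 CPM (69.5 to 123) and dendritic cells at 74.9 CPM (50.9 to 106), against 8.97 CPM in B cells. Timd4 and Cd163 stood at 21.7 and 19.3 CPM in the 31 dendritic cells of sham.

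Endothelial cells held Lyve1, at 285 CPM (266 to 304) in sham, 215 (200 to 232) in TAC-2w, 5.20 (3.30 to 7.80) in TAC-4w and 54.6 (40.1 to 72.7) in TAC-6w. Their number was 393, 485, 468 and 193 cells, and Lyve1 was found in 24.4%, 14.4%, 1.28% and 5.18% of them at a median depth of 6460, 3859, 7313 and 3687 UMIs, against the B cell shares of 4.00%, 4.96%, 0.127% and 0.240% given above. The ratios to sham were 0.756 (0.683 to 0.836), 0.0183 (0.0115 to 0.0276) and 0.192 (0.140 to 0.257), where the median gene of endothelial cells was at 1.00, 1.11 and 0.931. So at TAC-4w Lyve1 was low in both endothelial cells and macrophages, and at TAC-2w it was lower than sham in the former and higher in the latter. In sham, 62 endothelial cells with 3 or more Lyve1 UMIs held 94.8% of the Lyve1 UMIs of the class. These cells had less C1q than the other endothelial cells (41.5 against 72.4 CPM), and the summed lymphatic endothelial markers (Prox1, Mmrn1, Ccl21a, Flt4, Reln and Pdpn) stood at 128 against 78.5 CPM in sham and 144 against 147 CPM in TAC-2w. Their median depth was 12030 UMIs against 5360 in the other endothelial cells of sham.

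Ltc4s went the other way in endothelial cells, at 7.56 CPM (4.79 to 11.3) in sham, 8.21 (5.41 to 11.9) in TAC-2w, 18.1 (14.3 to 22.5) in TAC-4w and 52.3 (38.2 to 70.0) in TAC-6w. It was found in 3.56%, 3.71%, 10.7% and 16.6% of endothelial cells. Of B cells 1 of 200 had a UMI of it in sham, 2.84% in TAC-2w and 0.211% in TAC-4w, and in TAC-6w 0 of 417 did, which, by a limit of 3 cells, allows a share with a UMI of up to 0.719%. Its ratio to sham in endothelial cells was 2.39 (1.49 to 3.99) at TAC-4w and 6.92 (4.10 to 12.0) at TAC-6w, from 23 UMIs in sham, 80 in TAC-4w and 45 in TAC-6w, with at most 5 UMIs in 1 cell. At TAC-4w Ltc4s was thus lower than sham in macrophages and higher in endothelial cells of the same library. Cbr2 was held by mural cells (pericytes and smooth muscle) of sham at 98.8 CPM (80.1 to 121) and of TAC-2w at 58.9 CPM (45.2 to 75.3), each with 84 cells, and had 0 UMIs in the 7 and 20 mural cells of TAC-4w and TAC-6w. Of the mural cells 32.1% in sham and 27.4% in TAC-2w had a UMI of Cbr2, at a median depth of 12386 and 12554 UMIs, against 2.00% and 4.96% of B cells.

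**Figure D4:**
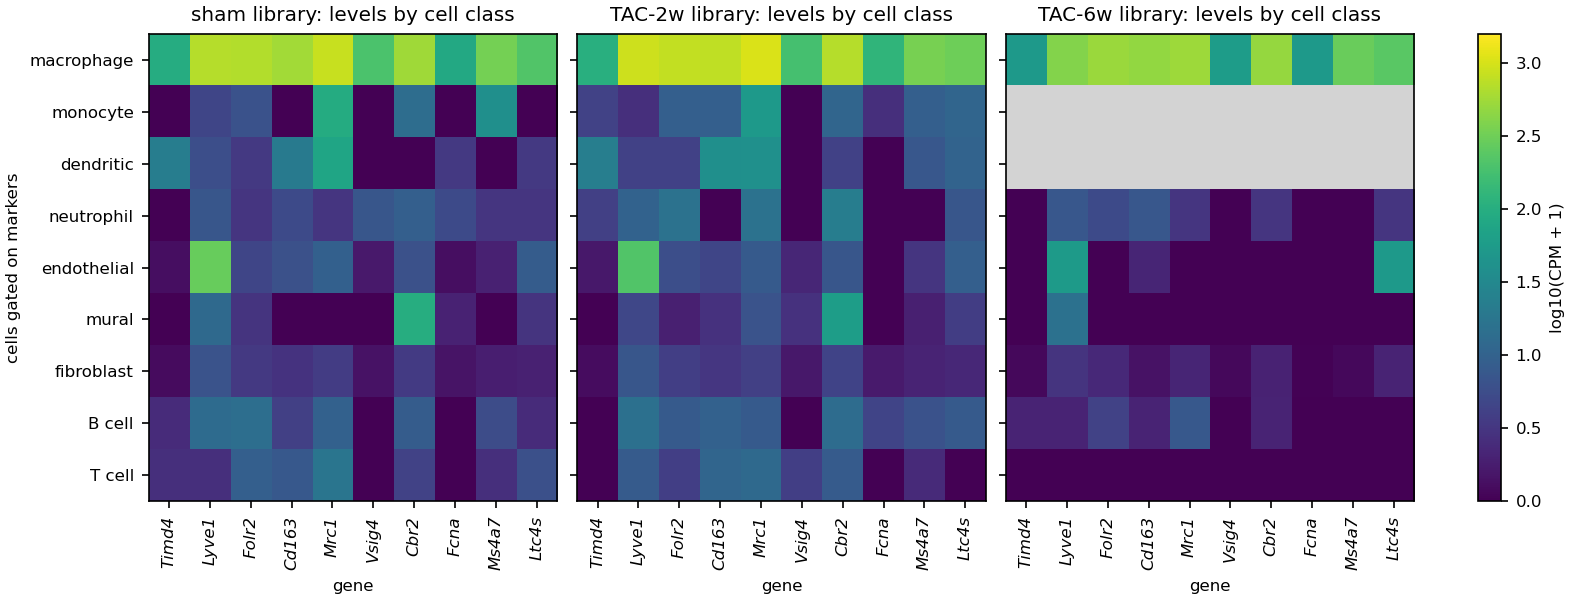
Levels of the members by cell class in the sham, TAC-2w and TAC-6w libraries, as log10(CPM + 1), to be read down each column; grey marks classes of fewer than 20 cells. Macrophages hold the highest level of every member in these libraries, and the further squares above 50 CPM are Lyve1 in endothelial cells, Cbr2 in mural cells of sham and TAC-2w, Mrc1 in monocytes of sham and TAC-2w and in dendritic cells of sham, and Ltc4s in endothelial cells of TAC-6w (52.3 CPM).

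In the heart sections the members showed no fall at TAC-4w like that in the library. The sections had 1676 spots in sham, 2063 in TAC-2w, 1228 in TAC-4w and 2193 in TAC-6w, with medians of 15488, 24523, 27593 and 20203 UMIs per spot, and a spot holds several cells. A level in a section is over all its spots, so that fewer cells of a type and less RNA per cell cannot be told apart. By the labels the sham and TAC-2w sections were of 1 batch and the other sections each of another, so that only TAC-2w against sham is within a batch. Over the members the median ratio to sham was 0.887 in the TAC-2w section, 1.42 in that of TAC-4w and 1.11 in that of TAC-6w, where the median gene was at 1.03, 1.16 and 1.24. In spots of 20000 to 30000 UMIs the median over the members at TAC-4w was 1.04. The summed C1q genes, which mark macrophages as a whole, stood at 207 CPM in sham, 188 in TAC-2w, 414 in TAC-4w and 305 in TAC-6w.

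Of the scavenger receptors, Cd163 and Mrc1 were highest in the TAC-4w section. Cd163 stood at 14.5 CPM in sham, 11.9 in TAC-2w, 27.7 in TAC-4w and 12.4 in TAC-6w, with a ratio of 1.92 (1.70 to 2.17) at TAC-4w. Mrc1 stood at 20.5, 17.4, 31.5 and 24.2 CPM, with ratios of 0.849 (0.761 to 0.948), 1.54 (1.38 to 1.71) and 1.18 (1.06 to 1.31). Lyve1 stood at between 16.4 and 19.7 CPM (interval, from 468 UMIs) in sham and at 16.6, 21.8 and 11.6 CPM in the TAC sections, so that TAC-6w was its lowest section, at 0.643 (0.568 to 0.729) of sham. Folr2 varied least, at 14.8, 14.3, 13.6 and 15.6 CPM, and each of its ratios had an interval that included 1. Timd4 was near its counting limit, at 1.54, 1.31, 2.38 and 1.78 CPM from 40 to 86 UMIs.

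Vsig4 was low in the sections of TAC-2w and TAC-6w. It stood at 1.81 CPM in sham, 0.841 in TAC-2w, 3.10 in TAC-4w and 0.890 in TAC-6w, from 41 to 99 UMIs, with ratios of 0.465 (0.298 to 0.723), 1.71 (1.20 to 2.48) and 0.493 (0.318 to 0.761). In spots of 20000 to 30000 UMIs its ratio at TAC-4w turned to 0.841 and that at TAC-6w was 0.314. Fcna, at 3.54, 3.69, 4.60 and 2.94 CPM, did not differ from sham beyond counting error in any section. Cbr2 stood at 15.7, 19.0, 18.8 and 21.1 CPM, above sham in each TAC section, but at TAC-4w its ratio turned from 1.20 to 0.907 in spots of 20000 to 30000 UMIs. Ltc4s stood at 4.69, 5.41, 4.51 and 5.45 CPM, with each interval of its ratios including 1. Ms4a7 stood at 4.39, 2.79, 10.2 and 7.87 CPM, with ratios of 0.636 (0.492 to 0.823), 2.33 (1.88 to 2.92) and 1.79 (1.45 to 2.23). Among the members that had 50 or more UMIs in either section, none was past 2-fold at TAC-2w (9 members) or TAC-6w (9 members), and Ms4a7 was at TAC-4w (10 members). Vsig4, at 0.465 and 0.493, was not counted at TAC-2w and TAC-6w, since it had fewer than 50 UMIs in each section compared. Of all genes with 50 or more UMIs, 0.587% were at 0.5 or less and 0.657% at 2 or more at TAC-2w, 0.776% and 5.28% in TAC-4w, and 0.251% and 4.66% in TAC-6w. Relative to the median gene, 3 of the 10 members were above 1 in the section of TAC-2w, 8 in that of TAC-4w and 2 in that of TAC-6w. At TAC-4w the ratios so taken of Folr2 and Ltc4s were 0.792 (0.690 to 0.914) and 0.828 (0.646 to 1.06).

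**Figure D5:**
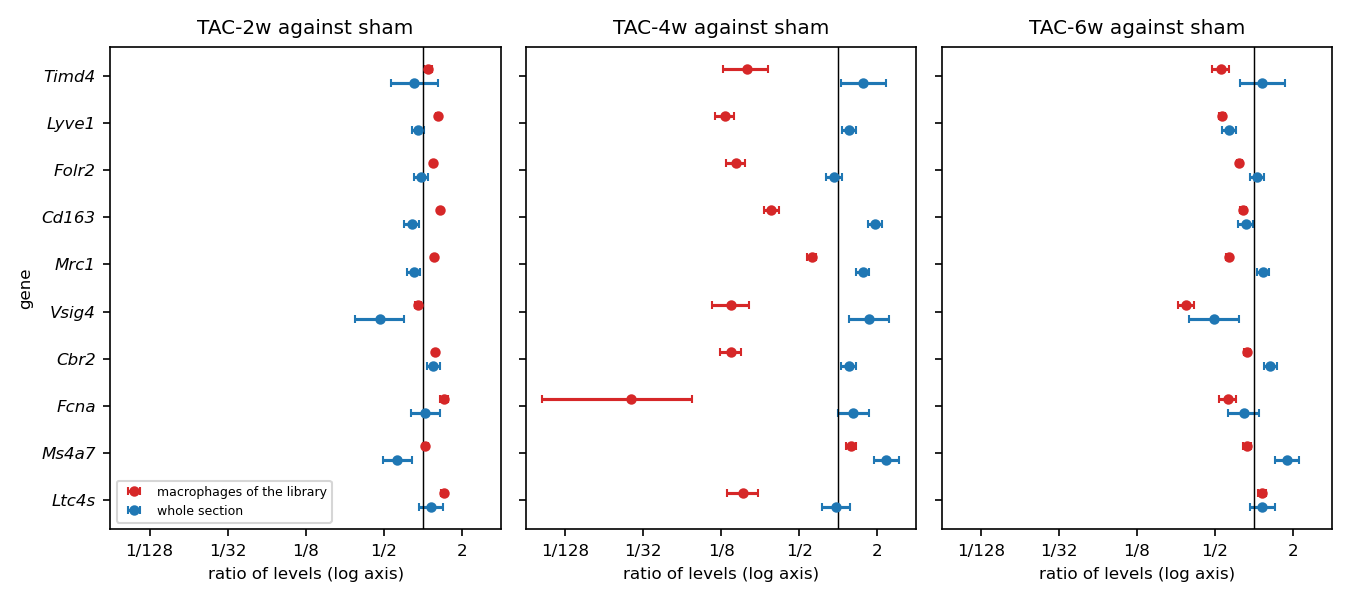
Ratio of the level of each member to sham, on a log axis, in macrophages of the libraries (red) and in whole sections (blue), with exact 95% intervals for counting error; the line marks 1. At TAC-4w 9 red points lie left of the line, from 0.0253 to 0.623, while 8 of the 10 blue points lie right of it.

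Set against C1q in the same section, 6 of the 10 members were lower than in sham at TAC-4w and 7 at TAC-6w beyond counting error, and the intervals of the others included 1. Over the members the median ratio per C1q UMI was 0.711 at TAC-4w and 0.751 at TAC-6w, against 1.42 and 1.11 per total UMI. Summed C1q was itself at 2.00 and 1.47 of sham per total UMI, and the median gene at 1.16 and 1.24. A gene that rose less than C1q falls below 1 on this scale, as the median gene does. The share of all genes below sham per C1q was not computed. At TAC-4w the ratio per C1q was 0.460 (0.401 to 0.529) for Folr2, 0.481 (0.375 to 0.617) for Ltc4s, 0.599 (0.528 to 0.681) for Cbr2 and 0.606 (0.538 to 0.683) for Lyve1. It was 0.960 (0.850 to 1.09) for Cd163 and 1.17 (0.942 to 1.46) for Ms4a7. At TAC-6w the lowest were Vsig4 at 0.335 (0.216 to 0.517) and Lyve1 at 0.437 (0.386 to 0.495). Ms4a7 was the member with a ratio per C1q above 1 at both TAC-4w and TAC-6w, with intervals that included 1.

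Even so, per C1q the TAC-4w macrophages of the library held less of most members than the TAC-4w section. Per 100 C1q UMIs, Lyve1 was at 4.30 in sham macrophages and 8.69 in the sham section, and at 0.669 in TAC-4w macrophages and 5.26 in the TAC-4w section. Fcna was at 0.524 and 1.71 in sham, and at 0.0156 and 1.11 in TAC-4w. Timd4, which has few UMIs in cells that are not macrophages, was at 0.586 and 0.742 in sham and at 0.135 and 0.575 in TAC-4w. Mrc1 had a gap in both conditions, at 5.22 and 9.87 in sham and at 3.82 and 7.61 in TAC-4w. Ms4a7 was at 2.07 and 2.12 in sham and at 3.03 and 2.47 in TAC-4w, so that it was the member without such a gap at TAC-4w. The section also holds the further sources of Lyve1, Ltc4s and Cbr2 given above, and their part in the gap was not tested. Ltc4s, with 35.1% of its TAC-4w UMIs in macrophages, was at 1.30 and 2.26 in sham and at 0.280 and 1.09 in TAC-4w.

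Within the sections, the summed members were highest in the spots with the most C1q. Summed over the members, spots with 6 or more C1q UMIs had 174 CPM in sham, 150 in TAC-2w, 156 in TAC-4w and 122 in TAC-6w, and spots with none had 51.8, 42.3, 103 and 60.6 CPM. The depth rose as well, from a median of 5761 to 23144 UMIs per spot in sham and from 20282 to 26456 in TAC-2w, and its part in this was not tested. At TAC-4w the rise was not steady, with 63.5 CPM in spots with 1 to 2 C1q UMIs and 83.4 CPM with 3 to 5, both below the 103 CPM of the 36 spots with none, which held 25 UMIs of members. Spots at the edge of the sham section had less of Fcna than interior spots (ratio 0.213, 0.0430 to 0.642), and less of Folr2 (0.437, 0.279 to 0.656), Cbr2 (0.465, 0.305 to 0.683), Mrc1 (0.597, 0.431 to 0.809) and Lyve1 (0.721, 0.523 to 0.974). C1q and the fibroblast markers were lower at that edge too (0.596 and 0.618), and Ms4a7 was at 1.11 (0.619 to 1.86). At the edge of the TAC-2w section Folr2 (0.699, 0.507 to 0.944) and Lyve1 (0.641, 0.470 to 0.856) were lower, and at that of TAC-4w Folr2 was (0.683, 0.464 to 0.975). In the TAC-6w section no member was lower at the edge beyond counting error, and Cd163 was higher, at 1.39 (1.08 to 1.77).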

How the data were processed

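The deposited values are raw UMI counts per gene and barcode, which the authors made with Cell Ranger (barcodes called as cells) and Space Ranger (spots over tissue). The file headers give versions 6.0.0 and 1.2.0, and the submitters' processing notes give 7.0.0 and 1.3.1 with the genome mm10. Values were computed with Scanpy 1.11.5, pandas 2.3.3, SciPy 1.17.1 and NumPy 2.4.6 in Python 3.11.15. Cells were kept with under 15% mitochondrial UMIs, 500 to 30000 UMIs in all and 200 to 6000 genes, and the 3.2% with the highest Scrublet scores were removed from each library, which left 5399 to 7965 of 5854 to 10275 barcodes. Spots were not filtered. Cells were gated on summed UMIs of marker lists. A level is the summed count per 1000000 UMIs (CPM), with exact Poisson intervals, exact conditional binomial intervals for ratios and Clopper-Pearson intervals for shares, at 95.0%. Co-detection used cells thinned to 1000 UMIs and Haldane-corrected odds ratios. The ratio intervals were tested on simulated independent Poisson sums, the model that they assume. That test cannot show how they fare where single cells hold many UMIs of a gene. The members and lists were chosen with earlier results of these data known. The genes named beside the members are the 3 of each list with the most UMIs in sham macrophages and up to 4 past 2-fold, and the 8 highest and 5 lowest by likeness; 1 gene of these is not reported here. Alternatives covered the C1q gate, cell filters, doublets, thinning, the features in the total, averaging and the set of spots.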

Additional observations from a re-analysis of the deposited data

Results flagged for a closer look

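For 12 ratios to sham, the library and the section of the same condition lay on opposite sides of 1 with both intervals clear of it. The share of such ratios over all genes was not computed, so 12 cannot be called many or few. The library value is for macrophages and the section value for all spots, the difference between them was not tested, and by the labels the library and the section of TAC-2w and of TAC-6w were not set against sham within the same batch in both assays. At TAC-4w the macrophages of the library were lower than sham and the section higher for 6 members. Cd163, the haemoglobin receptor, was at 0.304 and 1.92, Mrc1, the mannose receptor, at 0.623 and 1.54, and Lyve1, the hyaluronan receptor, at 0.133 and 1.21. Vsig4 was at 0.149 and 1.71, Timd4 at 0.196 and 1.55, and Cbr2 at 0.148 and 1.20. This opposition depends on the scaling of the section: in spots of 20000 to 30000 UMIs Vsig4 and Cbr2 turned to 0.841 and 0.907 there, and per C1q UMI all 6 section values were below 1. At TAC-2w the order was the other way round for 3 members, with the macrophages above and the section below sham: Cd163 at 1.37 and 0.824, Mrc1 at 1.23 and 0.849, and Ms4a7 at 1.05 and 0.636. At TAC-6w the macrophages were below and the section above sham for Mrc1 at 0.640 and 1.18, Cbr2 at 0.886 and 1.34, and Ms4a7 at 0.881 and 1.79. Relative to the median gene, the Mrc1 section at TAC-6w was at 0.952 (0.855 to 1.06). Macrophage values so taken were 1.02 (0.972 to 1.08) for Cbr2 and 1.02 (0.953 to 1.09) for Ms4a7. The TAC-6w oppositions were thus lost. At TAC-4w the section values of Lyve1, Cbr2 and Timd4 became 1.04 (0.922 to 1.17), 1.03 (0.905 to 1.17) and 1.34 (0.897 to 2.01). Those of Cd163, Mrc1 and Vsig4 stayed above 1. At TAC-2w Cd163 and Mrc1 stayed on opposite sides with both intervals clear of 1. The macrophage value of Ms4a7 at TAC-2w became 1.04 (1.00 to 1.08), an interval that reached 1.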

How the results depend on the processing

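No paired analysis was possible because each condition had 1 library and 1 section. Of 78 alternative values of the medians over the members or over their pairs, 64 stayed within the interval of the reported value, 13 moved beyond it and 1 reversed. For single members 409 of 540 stayed, 117 moved and 14 reversed. The median at TAC-4w in macrophages stayed between 0.166 and 0.216 under every alternative tried, among them 2 chosen after seeing the data, and was 0.168 in the 73 cells without markers of another class and 0.195 in the 93 without neutrophil markers. In macrophages, the median at TAC-2w moved to 1.33 with a mitochondrial share under 5%, 1.30 with no doublets removed, 1.11 without cells with 3 or more UMIs of another class, 1.20 without cells with 2 or more monocyte UMIs, 1.20 as a mean over cells and 1.19 per C1q UMI, and at TAC-6w to 0.778 with a mitochondrial share under 5%. In sections it moved at TAC-2w to 0.759 without mitochondrial and rRNA-like genes in the total, at TAC-4w to 1.04 in spots of 20000 to 30000 UMIs, and per C1q UMI to 0.751 at TAC-6w and, reversed, 0.711 at TAC-4w. The median odds ratio moved to 4.19 in sham and 4.72 in TAC-2w without thinning, and to 2.49 in TAC-2w at 2000 UMIs. Single members that reversed were, in macrophages at TAC-2w, Vsig4 (1.04 without cells of another class, 1.02 thinned, 1.00 as a mean over cells) and Timd4 (0.948 thinned). In sections they were Vsig4 (0.841) and Cbr2 (0.907) in spots of 20000 to 30000 UMIs at TAC-4w. Per C1q UMI they were Timd4 (0.774), Lyve1 (0.606), Cd163 (0.960), Mrc1 (0.771), Vsig4 (0.858) and Cbr2 (0.599) at TAC-4w and Mrc1 (0.802) and Cbr2 (0.913) at TAC-6w. A value per C1q differs by its construction, since C1q rose in these sections, and the cause of the others was not tested. Depth limits Fcna, Vsig4 and Timd4 in the 164 macrophages of TAC-4w and in the sections.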
